A study of Mus musculus with 2 samples.

Results

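The 10 genes followed here belong to the p53 pathway and were compared across the cell states of a mouse embryonic stem (ES) cell culture: Cdkn1a, Mdm2, Ccng1, Phlda3, Trp53inp1, Zmat3, Eda2r, Sesn2 and Aen, which are p53 target genes, and Trp53, the gene of p53 itself. They were chosen by symbol, and all 10 of 10 were found among the 32285 genes listed in the files. The cells were ES cells of the inbred strain C3H/HeSn-Paf/J from 9 independently derived lines, 3 each from XX, XO and XY embryos, mixed in 1 pool and profiled by droplet single-cell RNA-seq (10x Chromium, version 3.1 chemistry). The 2 libraries were time 1, an early passage, and time 2, the same pool after 10 more passages, which the design text describes as a way to let aneuploid cells accumulate. Both pools were grown in serum medium with LIF on gelatin and irradiated mouse embryonic fibroblasts (MEFs), which serve as feeder cells. No drug or genotype was compared. Lipid tags that could link a cell to its line were not used here, so each pool of 9 lines is 1 sample, every time point has 1 library, and no difference between times or cell states has a replicate test.

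p53 is a transcription factor that is held at a low level by Mdm2, a ubiquitin ligase whose own gene is a p53 target. DNA damage and other stresses stabilise the p53 protein, and the target genes are then transcribed more while the Trp53 mRNA itself need not change. The targets have distinct tasks. Cdkn1a encodes p21, an inhibitor of cyclin-dependent kinases that halts the cell cycle, and Mdm2 and Ccng1 act back on p53. Phlda3 restrains Akt, and Trp53inp1 and Sesn2 act in stress responses and autophagy. Zmat3 binds RNA, Eda2r is a receptor of the TNF receptor family, and Aen is an exonuclease. Mouse ES cells cycle with a short G1 phase, whereas irradiated feeder fibroblasts are kept alive but do not divide.

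The promoter of a p53 target often holds a p53 response element, a pair of half-sites of 10 bases in which a C and a G are fixed. Windows from 250 bases before to 50 after the transcription start (RefSeq, GRCm38.p6) were searched for the element with no spacer; it reads the same on both strands. The 32851 windows belong to 27025 genes, among them 8 of the 10 genes here, without Trp53inp1 or Zmat3. A site with at most 1 mismatch stood in a window of 22 genes (0.081%), and Cdkn1a and Ccng1 were among them. With up to 3 mismatches, 441 genes (1.63%) and 4 of the 8 matched, the other two being Aen and Trp53; Mdm2, Phlda3, Eda2r and Sesn2 had no match. Cdkn1a has 2 windows, for 2 transcription starts, and the match lay in 1 of them. The matches are shown as the sequence context of these promoters, and they do not sort the genes by how they varied below. The capitals mark the 20 bases of the match, and a match is a description of letters, not a measured binding site.

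Cdkn1a, chr17:29090898-29090977, plus strand, 1 mismatch, 51 bases before the start of the matching window's transcript: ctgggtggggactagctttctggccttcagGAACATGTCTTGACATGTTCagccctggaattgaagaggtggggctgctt
Ccng1, chr11:40755432-40755511, minus strand, 1 mismatch, 195 bases before the start: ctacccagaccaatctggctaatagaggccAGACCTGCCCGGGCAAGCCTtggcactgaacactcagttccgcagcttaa
Aen, chr7:78895937-78895956, plus strand, 3 mismatches: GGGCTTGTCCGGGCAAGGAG
Trp53, chr11:69580254-69580333, plus strand, 3 mismatches, 75 bases before the start: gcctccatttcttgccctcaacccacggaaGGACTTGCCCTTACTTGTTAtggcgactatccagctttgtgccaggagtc

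After filtering, 25029 cells remained at time 1 and 27160 at time 2, with medians of 44636 and 51629.5 unique molecular identifiers (UMIs, counted RNA molecules) per cell; 179 cell barcodes occurred in both libraries. The 15 clusters were made with the 10 genes and the p53 lists left out of the clustering, so that none of them set a cluster. The 3 clusters called pluripotent stem cell-like (led by Jam2, Nanos3 and Gm46332) held 1441 and 19086 cells. Detection of the 12 pluripotent markers did not set them apart, since 11 or 12 were detected in every cluster; their summed level was 13280 and 7592 CPM in this class. The make-up of the class differed between the libraries: Jam2-led cells were 1307 of 1441 at time 1 and 2502 of 19086 at time 2, when 10355 were Gm46332-led. The Nanos3-led and Gm46332-led clusters had no listed marker among their leading genes and were called pluripotent by default. A Rhox9-led cluster of 8289 and 660 cells had high pluripotent markers but a trophoblast-list gene, Rhox6, among its leading genes, and is given under its leading gene. The pluripotent class of time 1 thus left out many cells with stem cell RNA. Pluripotent markers summed to 10767 CPM in the Rhox9-led and to 8437 CPM in the 6654 Spry2-led cells of time 1. A second sorting by marker UMIs, without clusters, called pluripotent every cell in which no other marker list was raised. It required no pluripotent marker. It took in 19615 cells of time 1, 1357 of them in the class and 6237 in the Rhox9-led cluster. At time 2 it took in 20465 cells, 17184 of them in the class. Fibroblast-like cells, the class expected of the feeders, numbered 441 and 708 with 9 of 10 fibroblast markers detected; feeder MEFs and fibroblasts arising in the culture cannot be told apart here. An unnamed Krt18-led cluster of 70 barcodes, all of time 1, stood apart with a median of 352473.5 UMIs and 0.10% mitochondrial UMIs; it is in none of the named classes and held Cdkn1a at 52.5 and Mdm2 at 32.6 CPM. The 4 differentiated classes were trophoblast-like, mesendoderm-like, primitive or parietal endoderm-like and endothelial-like, with 1195 and 781 cells together.

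Levels are given as CPM, the summed UMIs of a gene scaled to a common UMI total per class, thus shares of each class's RNA, with 95% Poisson intervals that cover counting error only. In pluripotent cells Cdkn1a stood at 63.7 CPM (interval 62.1 to 65.3) in the early library and 58.9 CPM (interval 58.4 to 59.3) in the later one. When every cell was thinned to 10000 UMIs, 39.8% (95% exact interval 37.2% to 42.3%) and 37.8% (37.1% to 38.5%) of pluripotent cells had a Cdkn1a UMI, against 79.8% and 77.6% at full depth. Free RNA in low-UMI barcodes held Cdkn1a at 71.3 and 70.5 CPM, and no class lacked the gene, so a share of cells with a UMI is not read here as a share of expressing cells. Such barcodes had medians of 1387 and 637 UMIs, 3.11% and 1.23% of a median cell.

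Cdkn1a was low in pluripotent cells, higher in most differentiated classes and highest in fibroblast-like cells. At time 1 it went from mesendoderm-like (41.3 CPM), pluripotent (63.7), Rhox9-led (78.8) and two-cell-like cells (94.5) over primed epiblast-like (100.7), Id1-led (112), endoderm-like (118), endothelial-like (141) and trophoblast-like cells (152) to macrophage-like (389) and fibroblast-like cells (546). At time 2 pluripotent (58.9), endoderm-like (61.7) and two-cell-like cells (64.5) were lowest, then Rhox9-led (86.0), mesendoderm-like (87.1), Id1-led (96.3), primed epiblast-like (114), trophoblast-like (162), endothelial-like (180) and fibroblast-like cells (478). The Spry2-led cluster stood at 84.6 CPM at time 1 and had 15 cells at time 2. At time 1 the intervals of neighbours overlapped for two-cell-like with primed epiblast-like cells, for Id1-led with endoderm-like, endoderm-like with endothelial-like and endothelial-like with trophoblast-like cells. At time 2 they overlapped for pluripotent, endoderm-like and two-cell-like cells and for Rhox9-led with mesendoderm-like cells. Fibroblast-like cells were highest of the ranked classes in both libraries. Next came macrophage-like cells at time 1 (389 CPM) and endothelial-like cells at time 2 (180 CPM), when 2 macrophage-like cells were not ranked. The rank of mesendoderm-like and endoderm-like cells differed between the libraries. Trp53 was highest in pluripotent cells, at 339.7 and 340.6 CPM, and lowest in fibroblast-like cells at time 1 (149 CPM) and endoderm-like cells at time 2 (185 CPM). Its order was not that of Cdkn1a reversed: mesendoderm-like cells of time 1 and endoderm-like cells of time 2 were low in both genes.

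**Figure D1:**
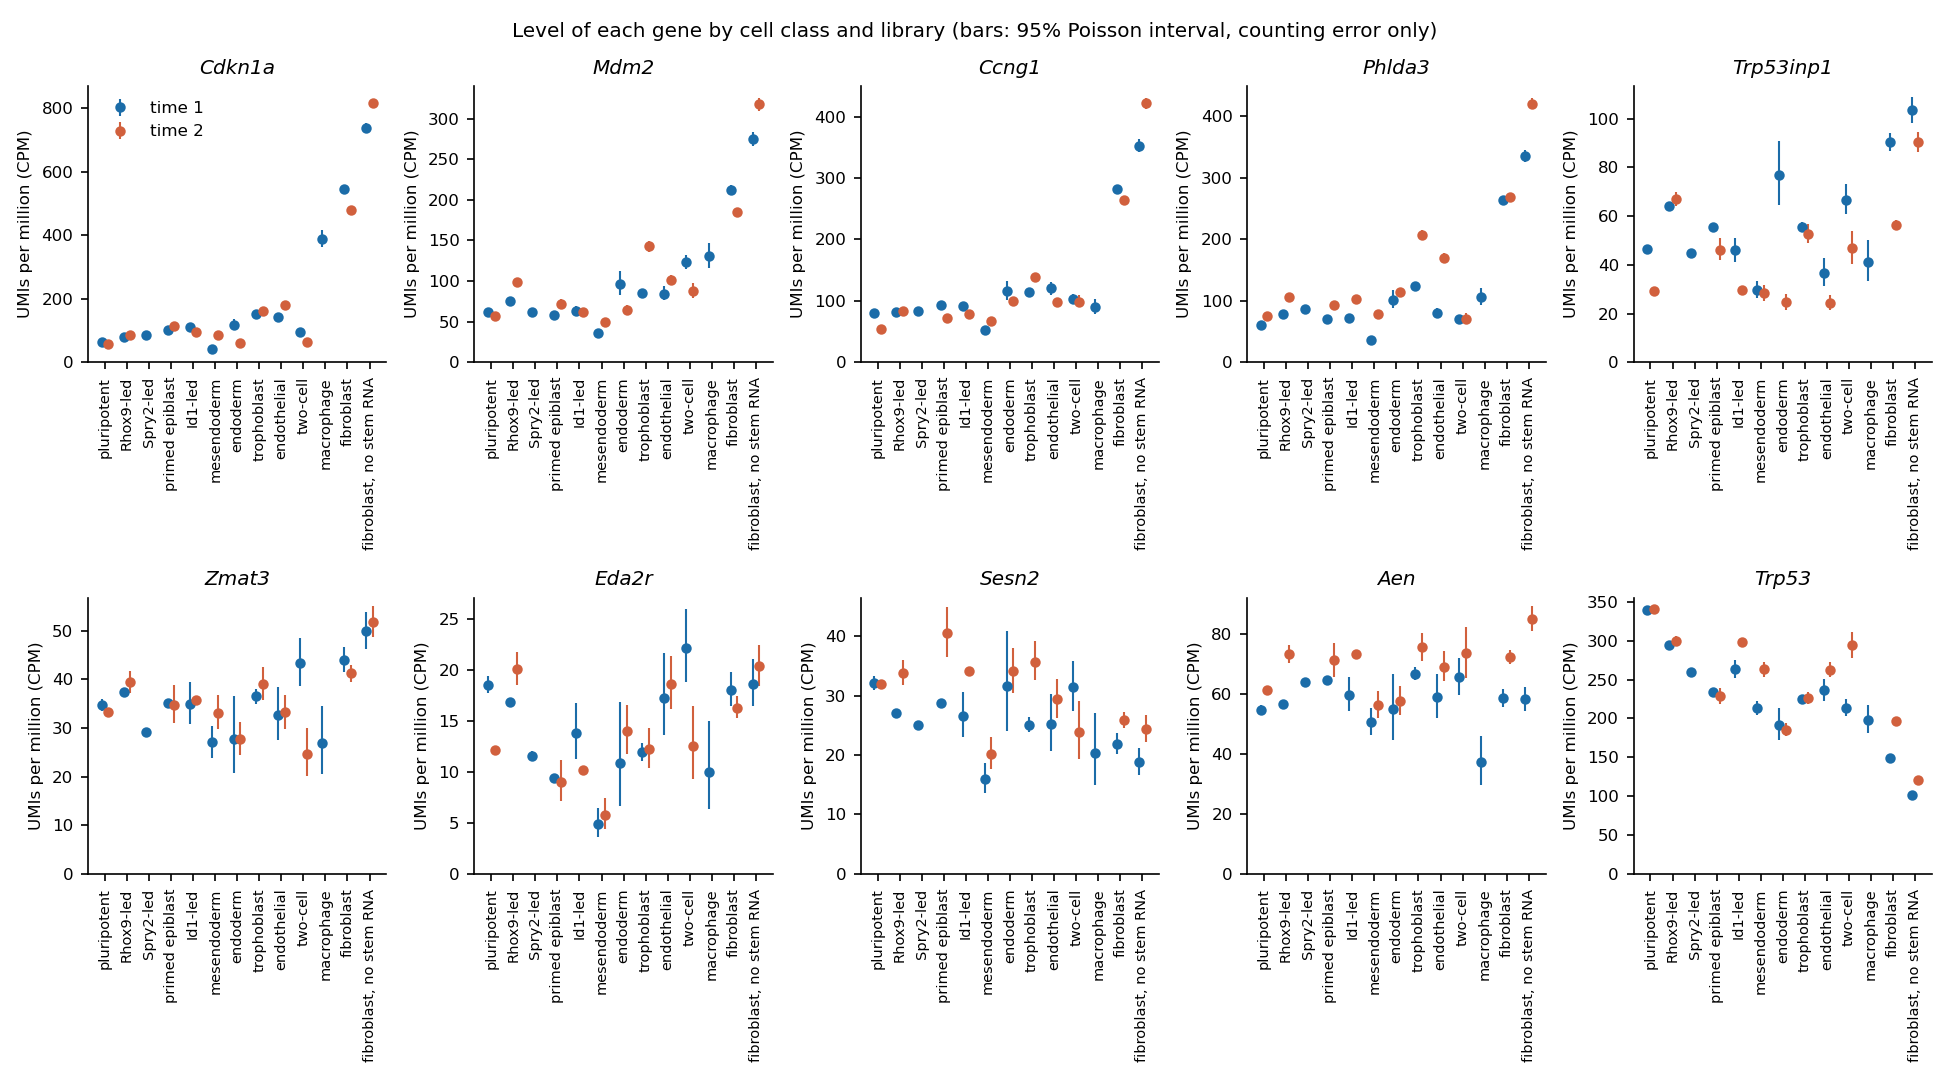
CPM (vertical axis) of each gene in each cell class (horizontal axis) at time 1 (blue) and time 2 (orange), with 95% Poisson intervals that cover counting error only; classes with under 50 cells in a library are not drawn. Cdkn1a, Mdm2, Ccng1 and Phlda3 were highest in fibroblast-like cells without stem cell RNA in both libraries, where Trp53 was lowest.

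Fibroblast-like cells carried the highest levels of the arrest and feedback genes. Cdkn1a reached 546 CPM (interval 537.5 to 555.5) in the early fibroblast-like cells and 478 CPM (interval 472.1 to 483.8) in the later ones, log2 ratios to pluripotent cells of 3.08 and 3.00 on the scale of CPM plus 1. The intervals of the 2 classes were far apart in both libraries. Cdkn1a ranked 377 of 6245 genes at time 1 and 347 of 5866 at time 2, counted from the highest ratio. Macrophage markers, the other cell type with high Cdkn1a, summed to 14.7 and 8.20 CPM in fibroblast-like cells against 8.26 and 7.65 CPM in pluripotent cells. The primitive or parietal endoderm list, which includes the matrix genes Col4a1, Lamb1 and Sparc that fibroblasts also express, summed to 2226 and 2032 CPM in fibroblast-like cells and to 3080 and 3305 CPM in those without stem cell RNA. It summed to 256 and 181 CPM in pluripotent and to 2891 and 3673 CPM in endoderm-like cells, and its part in the result was not tested.

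The p53 feedback genes were higher too. Mdm2 stood at 212 and 185 CPM in fibroblast-like cells against 62.1 and 57.0 CPM in pluripotent cells, 3.38-fold and 3.20-fold higher. Ccng1, which encodes cyclin G1, stood at 282 and 264 CPM against 80.3 and 54.9 CPM, 3.48-fold and 4.74-fold higher. For both genes the 2 libraries gave values close together over all fibroblast-like cells, and the larger Ccng1 fold at time 2 came with a lower pluripotent level. In the part of the fibroblast-like cells without stem cell RNA, given below, both genes were higher at time 2.

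Among the effectors, the picture was split. Phlda3 stood at 264 and 269 CPM in fibroblast-like cells against 61.4 and 75.0 CPM, 4.24-fold and 3.55-fold higher. Trp53inp1 stood at 90.2 and 56.4 CPM against 46.6 and 29.1 CPM, 1.92-fold and 1.91-fold higher and just short of the 2-fold mark. Over all fibroblast-like cells Phlda3 had nearly the same level at both times, while Trp53inp1 was lower at time 2 in both classes. In the part of the fibroblast-like cells without stem cell RNA, given below, Phlda3 was higher at time 2.

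The remaining targets differed little between fibroblast-like and pluripotent cells. Zmat3 was 44.0 and 41.2 CPM in fibroblast-like cells and 34.7 and 33.2 CPM in pluripotent cells, Aen 58.6 and 72.4 against 54.7 and 61.2 CPM, and Eda2r 18.1 and 16.3 against 18.6 and 12.2 CPM. Sesn2, the sestrin gene that restrains mTORC1, was lower in fibroblast-like cells at 21.9 and 25.9 CPM against 32.2 and 31.9 CPM. The span of another gene, Gm12981, overlaps that of Sesn2 on the same strand, and whether this affected the Sesn2 counts was not tested. Trp53 mRNA was 2.28-fold and 1.72-fold lower in fibroblast-like cells, at 149 and 197 CPM against 339.7 and 340.6 CPM.

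Counted by a rule of at least 2-fold higher in both libraries, 4 of the 9 genes with at least 20 CPM in either class (Cdkn1a, Mdm2, Ccng1 and Phlda3) were higher in fibroblast-like cells, against 16.7% of all 5682 genes that passed the same minimum; Eda2r did not pass it. The median log2 ratio of all genes was -0.17 and -0.16. The log2 ratio of Cdkn1a stayed between 2.25 and 3.51 at time 1 and between 2.46 and 3.77 at time 2 over the alternatives of scaling, pseudocount, class definition, reference cluster and background subtraction. Depth differed between the classes, with medians of 44877 and 63317.5 UMIs in fibroblast-like against 60813 and 51721.5 in pluripotent cells.

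Many fibroblast-like barcodes also held stem cell RNA. The 12 pluripotent markers summed to 13280 and 7592 CPM in pluripotent cells and to 3225 and 3378 CPM in fibroblast-like cells. A limit of 1500 CPM, set after the distribution was seen, left 206 and 359 fibroblast-like cells (46.7% and 50.7%) below it, with sums of 615 and 470 CPM; 44 and 61 cells lay within 1.5 times of the limit. The cells above the limit had medians of 35508 and 90349 UMIs, those below it 59538.5 and 46522. Whether the cells above the limit were doublets or held free RNA was not tested.

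In the fibroblast-like cells without stem cell RNA Cdkn1a, Mdm2, Ccng1, Phlda3 and Trp53inp1 stood higher still. Cdkn1a was 737 CPM at time 1 and 817 CPM at time 2, 11.4-fold and 13.7-fold above pluripotent cells. Mdm2 reached 275 and 317 CPM, Ccng1 353 and 421.5 CPM, Phlda3 335 and 420 CPM, and Trp53inp1 103.5 and 90.3 CPM. Trp53 was 101 and 120 CPM, 3.33-fold and 2.82-fold below the pluripotent level. By the 2-fold rule 5 of 9 genes were higher, Trp53inp1 having joined, against 23.9% of all 6092 genes.

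**Figure D2:**
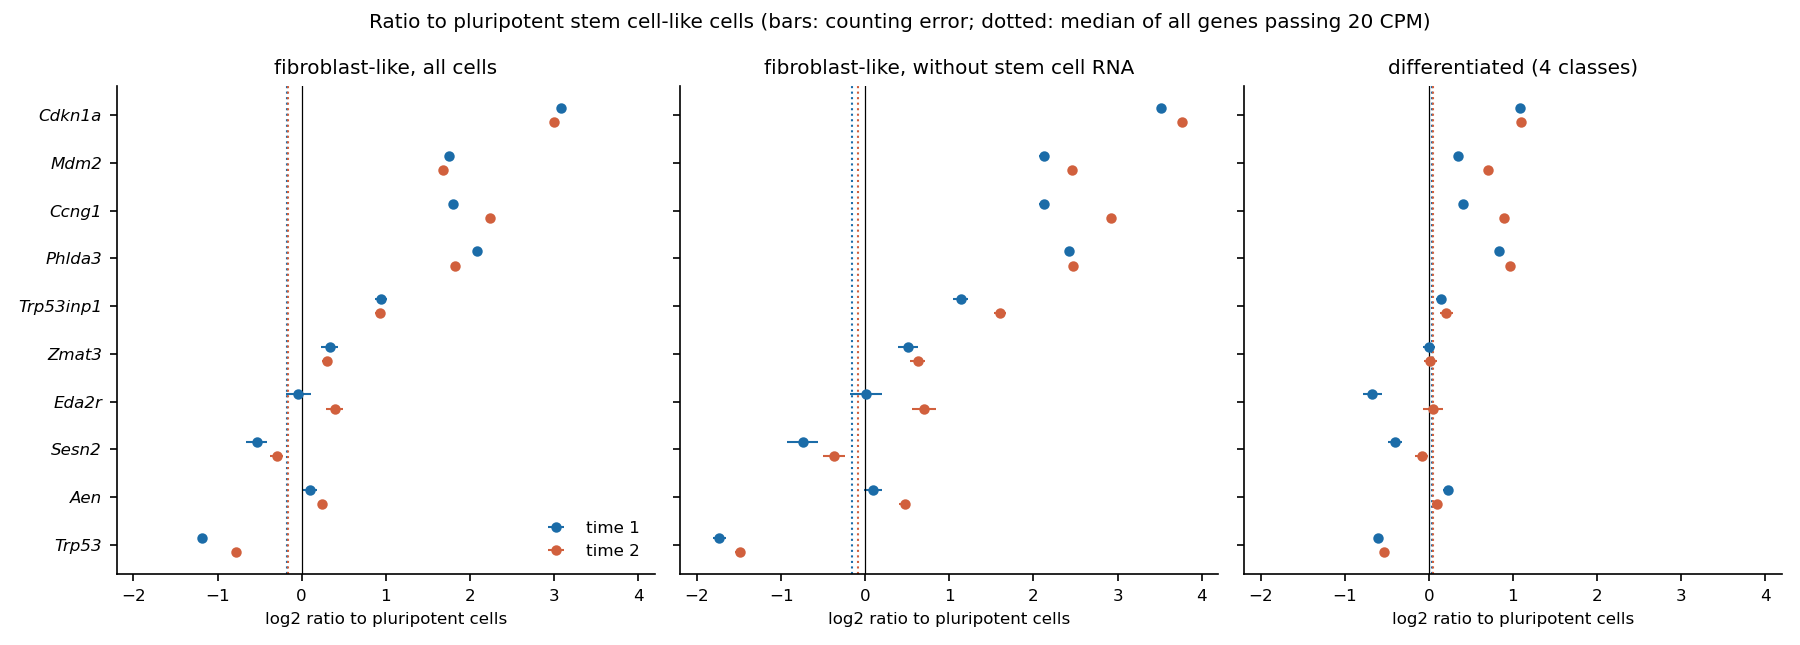
Log2 ratio of the level in fibroblast-like cells, in fibroblast-like cells without stem cell RNA and in the 4 differentiated classes over the level in pluripotent cells (horizontal axes), for each gene (vertical axis) at time 1 (blue) and time 2 (orange), with bars for counting error and dotted lines at the median of all genes passing 20 CPM. Cdkn1a lay at 3.08 and 3.00 in fibroblast-like cells but at 1.09 and 1.09 in differentiated cells, and Trp53 lay left of 0 in all 3 panels.

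Wider lists of pathway genes were counted in the same comparison of all fibroblast-like with pluripotent cells. Of 35 further p53 targets, 21 passed 20 CPM at time 1 and 20 at time 2; 7 and 10 were at least 2-fold higher and 1 and 1 at least 2-fold lower, with median log2 ratios of 0.17 and 0.81. Of all genes passing the same minimum, 20.1% and 18.2% were at least 2-fold higher and 16.8% and 7.18% at least 2-fold lower in the 2 libraries. Ephx1 (an epoxide hydrolase, 2.67 and 3.39), Btg2 (an antiproliferative gene, 2.48 and 2.30) and Plk2 (a polo-like kinase, 2.63 and 1.87) were among the highest at time 1, with Ephx1, Dcxr (2.90) and Ak1 (2.40) highest at time 2. Tigar, a fructose bisphosphatase, was lowest at -1.72 and -1.06, followed by Pmm1 (-0.87 and -0.53) and Gtse1 (-0.77 and -0.61). In both libraries more of the wider targets were thus at least 2-fold higher than at least 2-fold lower, as was also so for all genes, and some targets went the other way.

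Of 20 p53 regulators 13 passed, and of these Cdkn2a alone was at least 2-fold higher in both libraries, at 530 and 222 CPM in fibroblast-like against 44.2 and 22.8 CPM in pluripotent cells. Its locus encodes the kinase inhibitor p16 and Arf, an inhibitor of Mdm2, which these 3' counts do not separate. The neighbouring inhibitor gene Cdkn2b stood at 79.1 and 56.6 CPM against 3.71 and 2.31 CPM. In the other direction 7 and 3 regulators were at least 2-fold lower, with the checkpoint kinase gene Chek1 at -1.82 and -1.22 and Usp7, a deubiquitinase of p53 and Mdm2, at -1.48 and -1.02.

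Since the labelled feeders were irradiated, 23 proliferation genes were read in the fibroblast-like cells, of which 22 passed. In fibroblast-like cells 20 and 10 of them were at least 2-fold lower than in pluripotent cells, with median log2 ratios of -1.35 and -0.97. In those without stem cell RNA 21 and 21 of 22 were at least 2-fold lower, with medians of -2.75 and -2.63, against 27.7% and 27.5% of all genes. The exception was E2f1 (-0.39 and -0.21). Summed, the proliferation genes made up 572 and 710 CPM there against 3703 and 4269 CPM in pluripotent cells, so that low division genes and high Cdkn1a stood in the same class. These sums do not show whether they stood in the same cells. At time 2 the genes summed to 636 CPM in the 282 cells of the class with 2 or more Cdkn1a UMIs. In the 52 cells with none they summed to 838 CPM, also below the pluripotent sum.

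Summed over the 4 differentiated classes, Cdkn1a stood at about 2 times the pluripotent level, far less than in fibroblast-like cells. Of the 1195 and 781 cells in this sum, 852 and 234 were trophoblast-like. Trophoblast-like and endothelial-like cells were above the pluripotent level in both libraries. Mesendoderm-like cells of time 1 (41.3 CPM) were below it, and endoderm-like cells of time 2 (61.7 CPM) were near it. Cdkn1a was 137 CPM at time 1 and 126.5 CPM at time 2 over the 4 classes, 2.13-fold and 2.13-fold above pluripotent cells. Phlda3 followed at 110 and 147 CPM (log2 ratios 0.83 and 0.96), then Ccng1 at 107 and 103 CPM (0.40 and 0.89) and Mdm2 at 79.4 and 93.2 CPM (0.35 and 0.70). Trp53 was again lower, at 223 and 235 CPM (-0.60 and -0.53), and Zmat3 was level at 0.00 and 0.02.

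By the 2-fold rule in both libraries 1 of 9 genes, Cdkn1a, was higher in differentiated cells against 5.92% of 5339 genes, and 0 of 9 were lower against 3.13%. This call was close to the mark: it was lost with TMM scaling, with cells weighted equally after thinning, and when Rhox9-led cells were the reference or were added to it together with Spry2-led cells. It was also lost when cells were classed by marker UMIs without clusters, where the log2 ratio of Cdkn1a was -0.14 at time 1 and 0.73 at time 2. That class held 3693 and 3179 cells, of which only 438 and 553 were in the 4 clusters and 2033 and 325 were Rhox9-led.

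The 4 differentiated classes were not alike. Trophoblast-like cells had the highest Phlda3 of the 4, at 124.5 and 208 CPM, with Cdkn1a at 152 and 162 CPM and Mdm2 at 85.6 and 143 CPM. Their name rests on Hand1, the only trophoblast marker among their leading genes. Trophoblast markers summed to 299 and 981 CPM in them, against 310 and 448 CPM in Rhox9-led cells. Primed epiblast markers summed to 712 and 437 CPM in the trophoblast-like cells, so the name is weak at time 1. Endothelial-like cells had Cdkn1a at 141 and 180 CPM but Trp53inp1 below the pluripotent level (-0.34 and -0.24). Mesendoderm-like cells had all 10 genes below the pluripotent level at time 1, Cdkn1a at 41.3 CPM (-0.61) among them, whereas at time 2 their Cdkn1a was 87.1 CPM (0.56).

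Among the further p53 targets, 4 of 19 at time 1 and 5 of 17 at time 2 were at least 2-fold higher in differentiated cells and 2 and 2 at least 2-fold lower, with medians of 0.04 and 0.43. Of all genes 9.28% and 9.47% were at least 2-fold higher and 6.62% and 3.77% at least 2-fold lower. Plk2 (2.08 and 1.66) and Perp, a membrane protein gene (1.76 and 1.51), led at time 1, with Ptpn14 (1.76); Btg2 (1.72) and Ninj1 (1.69) led at time 2. The lowest were Ak1 (-1.497), Tigar (-1.14) and Ei24 (-0.88) at time 1 and Tigar (-1.08), Pmm1 (-1.004) and Ei24 (-0.44) at time 2. No regulator was 2-fold higher, and Mdm4, the partner of Mdm2, was lowest at -1.08 and -0.99. Another CDK inhibitor gene, Cdkn1c, was 9.75-fold and 7.58-fold higher, at 76.4 and 102 CPM against 6.94 and 12.6 CPM, and the proliferation genes had medians of -0.27 and -0.20.

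Within the pluripotent class, cells with more Cdkn1a also held more RNA of the other targets. At 10000 UMIs per cell, 196 cells at time 1 and 2784 at time 2 had 2 or more Cdkn1a UMIs, and 868 and 11869 had none. Phlda3 was 132 CPM in the first set and 46.0 in the second at time 1, and 149 and 58.5 CPM at time 2 (log2 ratios 1.498 and 1.34). Trp53inp1 was 86.7 against 37.3 CPM and 59.7 against 23.3 CPM (1.19 and 1.32), and Mdm2 110 against 50.9 CPM and 114 against 47.7 CPM (1.10 and 1.24). The counting intervals of all 6 ratios lay above 0.

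The other targets followed with smaller ratios. They were 0.70 and 0.87 on the log2 scale for Ccng1, 0.66 and 0.88 for Eda2r, 0.60 and 0.52 for Zmat3, 0.45 and 0.39 for Aen and 0.33 and 0.59 for Sesn2, whose counting interval at time 1 reached from -0.03 to 0.68. Trp53 itself was level, at 331 against 334 CPM and 335 against 340 CPM (-0.02 and -0.02, with counting intervals of -0.14 to 0.11 and -0.05 to 0.01). Over the class the mRNA of p53 was thus level to within counting error between cells that differed in its targets. In 1 of its clusters, Jam2-led cells of time 2, it was lower, at 335 against 362 CPM (-0.11, with a counting interval of -0.20 to -0.02).

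By a mark of at least 25% higher in both libraries, 7 of the 8 genes that passed 20 CPM in both were higher in Cdkn1a-high pluripotent cells (Mdm2, Ccng1, Phlda3, Trp53inp1, Zmat3, Sesn2 and Aen), against 1.53% of 4770 genes; Trp53 was not. At time 2 Phlda3 ranked 5, Trp53inp1 6, Mdm2 8 and Ccng1 21 of 4974 genes, and at time 1 Phlda3 6, Trp53inp1 12, Mdm2 16 and Ccng1 52 of 5370. In the Rhox9-led cluster, which has most of its cells at time 1, 7 of 9 passed (Mdm2, Ccng1, Phlda3, Trp53inp1, Zmat3, Eda2r and Sesn2) against 1.83% of 5039 genes. Eda2r reached the minimum of 20 CPM only in the Cdkn1a-high set (23.6 against 13.01 CPM and 29.3 against 13.4 CPM), so its pass adds nothing to this count. Aen was 0.33 and 0.28 there and Trp53 0.03 and -0.02.

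The levels went up in steps. In pluripotent cells of time 2 with 0, 1, 2 and 3 or more Cdkn1a UMIs, Mdm2 was 47.7, 62.4, 91.4 and 150.9 CPM. Phlda3 was 58.5, 89.6, 131.5 and 178.2 CPM over the same steps. Trp53 was 339.5, 340.7, 339.5 and 328.7 CPM, flat over the same cells. Before thinning, the high and zero sets had medians of 64209.5 and 59552 UMIs at time 1 and 47469.5 and 52520 at time 2, so that depth differed in opposite directions in the 2 libraries.

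**Figure D3:**
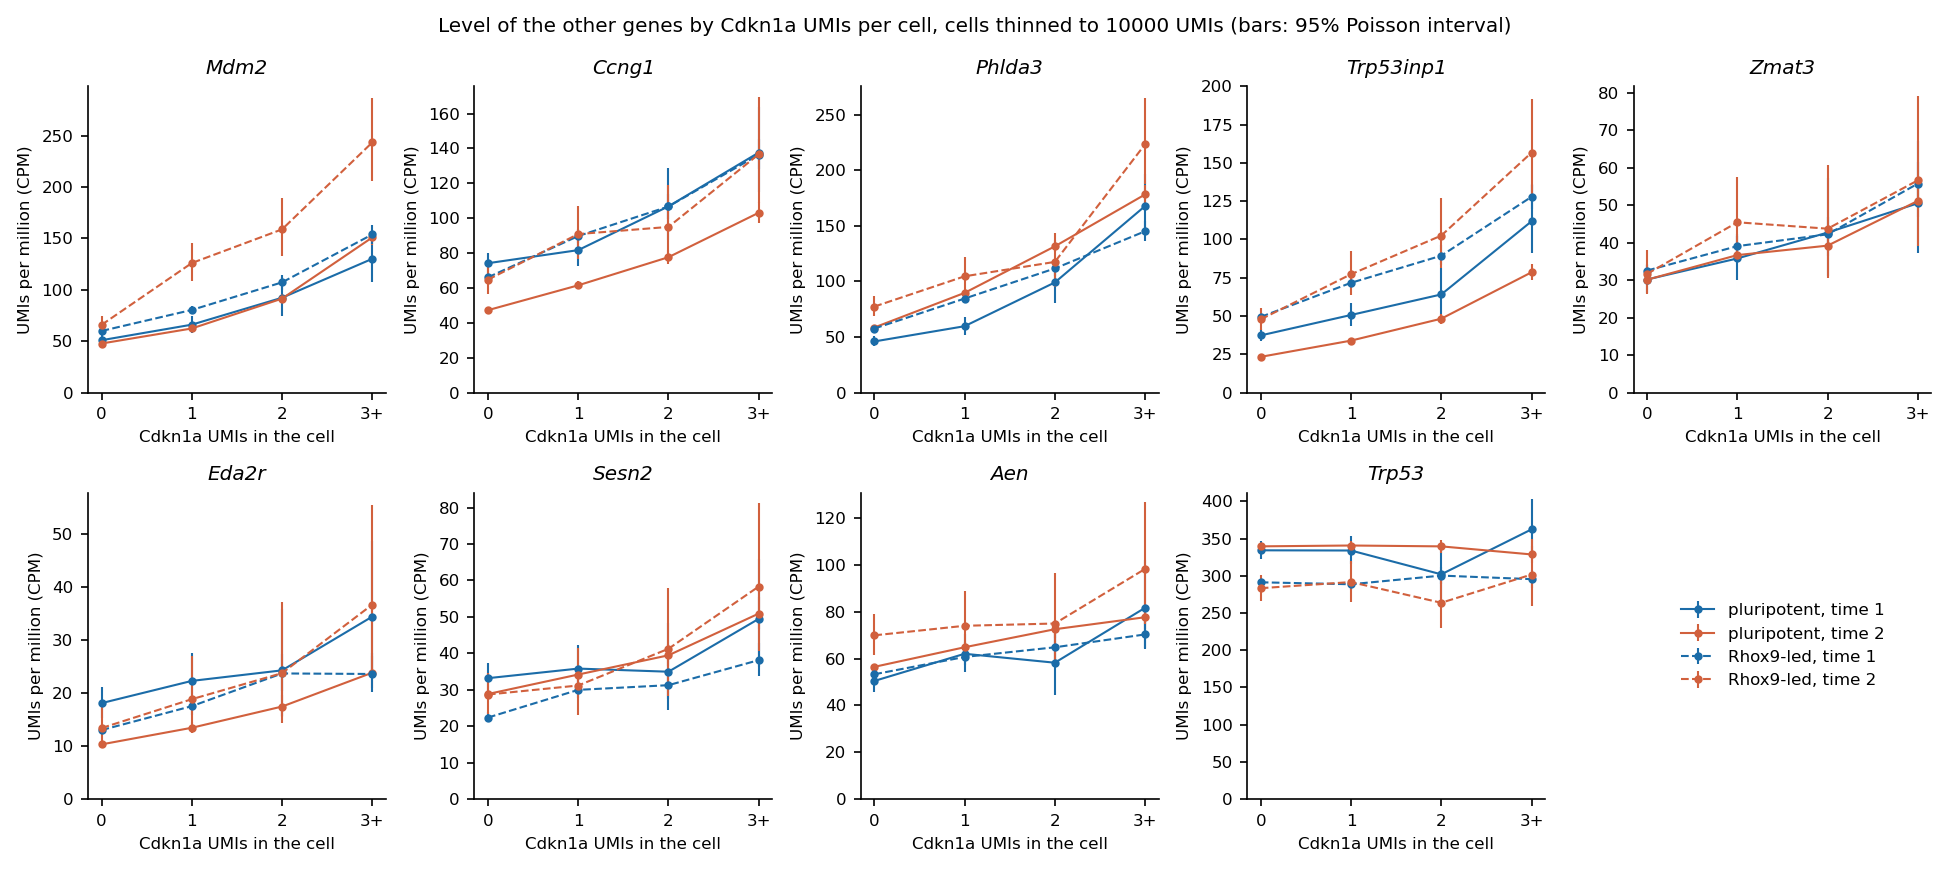
CPM of each other gene (vertical axes) in cells with 0, 1, 2 and 3 or more Cdkn1a UMIs at 10000 UMIs per cell (horizontal axes), in pluripotent (solid) and Rhox9-led cells (dashed) at time 1 (blue) and time 2 (orange), with 95% Poisson intervals. Mdm2 went from 47.7 to 150.9 CPM in pluripotent cells of time 2, and Trp53 stayed between 328.7 and 340.7 CPM.

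Of the further p53 targets, 13 of 19 at time 1 and 10 of 17 at time 2 were at least 25% higher in Cdkn1a-high pluripotent cells, with median log2 ratios of 0.41 and 0.50; of the p53 regulators 3 of 14 were in each library. The share of all genes was 7.26% of 5370 and 2.43% of 4974. The proliferation genes summed to 3640 CPM in Cdkn1a-high and 3649 CPM in Cdkn1a-zero cells at time 1 and to 4171 and 4227 CPM at time 2. Fibroblast markers summed to 132 and 137 CPM at time 1 and 142 and 143 CPM at time 2, and trophoblast markers to 91.8 and 79.1 CPM at time 1 and 100.7 and 69.7 CPM at time 2. By these sums, division genes and fibroblast markers were nearly level between the sets, and the trophoblast list was higher in the Cdkn1a-high set. Only 1 gene of the fibroblast list and 1 of the trophoblast list, which includes Rhox6, passed 20 CPM in each library. The sums of these 2 lists may thus rest on few genes. The sets also differed in clusters at time 2: 1263 of the 2784 high and 3476 of the 11869 zero cells were Nanos3-led, and 1202 and 6767 were Gm46332-led.

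Within the clusters of time 2 the trophoblast sums lay closer, at 22.1 against 19.99 CPM in Gm46332-led, 187 against 179 CPM in Nanos3-led and 54.2 against 42.8 CPM in Jam2-led cells. The targets still differed there. Phlda3 stood between 1.16 and 1.44 on the log2 scale in the 3 clusters. In the same order as above Trp53inp1 stood at 1.04, 1.21 and 1.35, Mdm2 at 0.77, 1.38 and 1.48 and Ccng1 at 0.83, 0.83 and 0.82. Zmat3 (0.30) in Gm46332-led and Aen (0.29) in Jam2-led cells were under the 25% mark.

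Cell-to-cell correlations were weak in these sparse counts. Over the 45 pairs of the 10 genes the median Pearson r of log values was 0.077 in the 1441 pluripotent cells of time 1 and 0.071 in the 19086 of time 2, and the highest, Cdkn1a with Phlda3, was 0.289 and 0.269. Over all genes, those with the highest r with Cdkn1a in pluripotent cells were Phlda3, Btg2, Trp53inp1, Sdc4 and Mdm4 at time 1 and Phlda3, Sdc4, Btg2, Mdm2 and Mdm4 at time 2. In fibroblast-like cells without stem cell RNA the highest pair was Cdkn1a with Mdm2 at time 1 (0.524, 206 cells) and Cdkn1a with Phlda3 at time 2 (0.533, 359 cells). In that class at time 2 most genes were higher where Cdkn1a was: 60.3% of 5405 genes were at least 25% higher in the 282 cells with 2 or more Cdkn1a UMIs than in the 52 with none, with a median log2 ratio of 0.54 and median depths of 51138 and 29472 UMIs. Phlda3 (1.79) ranked 696 and Mdm2 (1.42) ranked 1108 there. The cells of a library share free RNA, and these values carry no test.

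Across 26 cluster-by-library groups of at least 50 cells, the 5 genes most like Cdkn1a in log2 level were Mir22hg (r = 0.93), Filip1l (0.92), Il11ra1 (0.92), Sqstm1 (0.90) and Cav2 (0.90). Mdm2 (0.83) ranked 96 and Ccng1 (0.83) 111 of 7906 genes, and Phlda3 (0.76) ranked 363. Trp53inp1 (0.45), Zmat3 (0.39) and Eda2r (0.29) followed, Aen (0.01) and Sesn2 (-0.05) were near 0, and Trp53 stood at -0.53. Without the fibroblast-like groups, over 24 groups, Mdm2 stood at 0.72, Ccng1 at 0.62, Phlda3 at 0.56 and Trp53 at -0.32. The groups included the unnamed Krt18-led barcodes; without them, over 25 groups, Mdm2 stood at 0.83, Ccng1 at 0.82, Phlda3 at 0.81 and Trp53 at -0.63, and Ecm1 took the place of Sqstm1 among the 5 most alike.

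Between the times the 10 genes of the pluripotent class differed by log2 ratios of -0.66 to 0.29. These ratios set 19086 cells of time 2 against the 1441 of time 1. At time 1 the class left out the Rhox9-led and Spry2-led clusters, which had high sums of pluripotent markers. Cdkn1a had a log2 ratio of time 2 to time 1 of -0.11 (63.7 and 58.9 CPM). Mdm2 stood at -0.12 (62.1 and 57.0 CPM), Zmat3 at -0.06 (34.7 and 33.2 CPM) and Sesn2 at -0.01 (32.2 and 31.9 CPM). Trp53 stood at 339.7 and 340.6 CPM (0.00). Phlda3 was higher at time 2, at 75.0 against 61.4 CPM (0.29), as was Aen, at 61.2 against 54.7 CPM (0.16). Lower at time 2 were Ccng1 at 54.9 against 80.3 CPM (-0.54), Eda2r at 12.2 against 18.6 CPM (-0.57) and Trp53inp1 at 29.1 against 46.6 CPM (-0.66). By marker UMIs, 19615 and 20465 cells were called pluripotent because no other marker list was raised in them. Several values moved in these cells. Cdkn1a stood at -0.49, Trp53inp1 at -0.92, Ccng1 at -0.58 and Trp53 at 0.31, while Phlda3 (-0.01) and Aen (0.04) were level.

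With 1 library per time no replicate check exists, and the spread between 2 cultures of 1 passage is unknown. By a mark of 1.5-fold, 1 of 9 genes (Trp53inp1) was lower at time 2 against 10.5% of 5312 genes, and 0 of 9 were higher against 5.59%. The share of members is close to that of all genes. The clusters of the class changed in share between the times, and this cannot be told apart from a change within cells over the whole class. Within the Jam2-led cluster, 0 of 9 genes were 1.5-fold lower against 2.87% of genes; Trp53inp1 was 46.3 and 35.2 CPM (-0.39), Ccng1 80.8 and 66.0 CPM (-0.29) and Eda2r 19.2 and 19.2 CPM (0.00). Within the Nanos3-led cluster, with 94 cells at time 1 and 6229 at time 2, Mdm2 was 94.6 and 71.6 CPM (-0.40), Trp53inp1 58.2 and 42.2 CPM (-0.46) and Ccng1 84.4 and 62.5 CPM (-0.43), beside a median of all genes of -0.01. Within the Rhox9-led cluster 0 of 10 were lower against 1.03%, with Trp53inp1 at 64.2 and 67.1 CPM (0.06) and Mdm2 at 75.4 and 98.98 CPM (0.39).

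Phlda3 and Aen were higher at time 2 in all of the pluripotent class (0.29 and 0.16), Jam2-led (0.16 and 0.14), Nanos3-led (0.25 and 0.16), Rhox9-led (0.43 and 0.36) and, for Aen, fibroblast-like cells without stem cell RNA (0.54, with Phlda3 at 0.33), but level in pluripotent cells taken by marker UMIs. The further p53 targets had 1 of 17 genes at least 1.5-fold higher and 6 at least 1.5-fold lower at time 2 in the pluripotent class, with a median of -0.17. The lowest were Ninj1 (-1.39), Dcxr (-1.29) and Ak1 (-1.26), and the highest Ercc5 (0.67), Tigar (0.45) and Gtse1 (0.09). Of 14 regulators 0 were higher and 1 lower, Cdkn2a (-0.92), and of 22 proliferation genes 4 were higher and 0 lower. Of all 5312 genes, 5.59% were at least 1.5-fold higher and 10.5% at least 1.5-fold lower in the class.

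**Figure D4:**
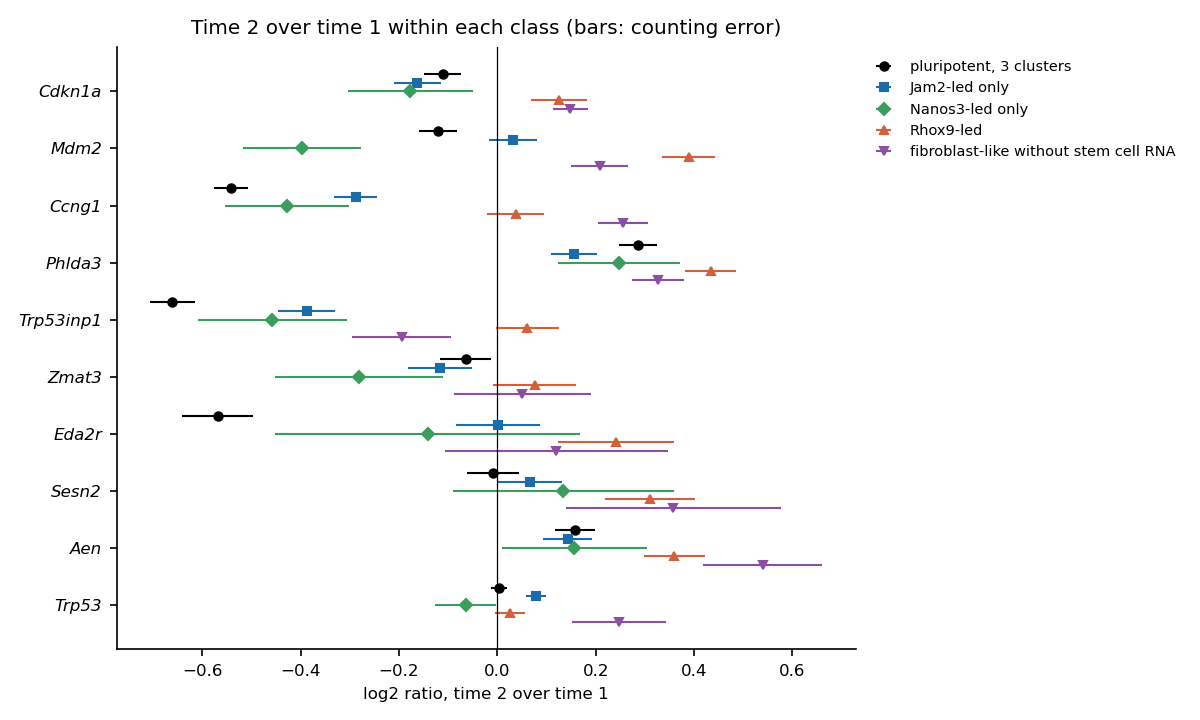
Log2 ratio of the level at time 2 over time 1 (horizontal axis) of each gene (vertical axis) in the pluripotent class, 2 of its clusters, the Rhox9-led cluster and fibroblast-like cells without stem cell RNA, with bars for counting error only. Trp53inp1 spanned -0.66 in the pluripotent class to 0.06 in Rhox9-led cells, and Phlda3 and Aen lay right of 0 in every group drawn.

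Gene dosage was read from each cell's share of UMIs by chromosome, with the 10 genes left out of the shares. Eda2r is the one gene of the 10 on the X chromosome (chrX:97333840-97377216, minus strand). Cells with an X ratio of at least 1.2, relative to the median of Y-expressing stem cells of their library, were set against cells below it. Eda2r was 19.5 against 11.5 CPM in 1256 and 185 pluripotent cells of time 1, and 18.4 against 10.8 CPM in 3082 and 16004 of time 2, log2 ratios of 0.72 and 0.72. In Rhox9-led cells it was 20.8 against 11.3 CPM and 23.4 against 12.9 CPM (0.82 and 0.82). Other X genes, which set the split, had medians of 0.84 and 0.76 in pluripotent and 0.72 and 0.71 in Rhox9-led cells, so Eda2r lay near the level of its chromosome. Most pluripotent cells of time 1 were of high X ratio and most of time 2 of low. The Eda2r difference between the times in the class (-0.57) was 0.00 in the Jam2-led cluster, where 1242 of 1307 and 2292 of 2502 cells had a high ratio. Cluster make-up changed between the times as well, and the cause of the Eda2r difference was not tested.

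Some autosomal targets also differed by X ratio. The pool mixed XX, XO and XY lines and cells were not linked to lines, so X ratio and line cannot be told apart here. In Rhox9-led cells of high X ratio Mdm2 stood higher by log2 ratios of 0.35 and 0.52, Trp53inp1 by 0.36 and 0.28, Ccng1 by 0.26 and 0.48 and Phlda3 by 0.36 and 0.22. The median of all genes was -0.01 and -0.01 there. In pluripotent cells Mdm2 stood at -0.12 and 0.13, Trp53inp1 at -0.17 and 0.32, Phlda3 at -0.10 and -0.09, Ccng1 at 0.04 and 0.26 and Cdkn1a at -0.33 and -0.05. At time 2 this split also compares clusters, since 2292 of the 3082 high-ratio cells were Jam2-led while 10085 and 5709 of the 16004 low-ratio cells were Gm46332-led and Nanos3-led. Within the Gm46332-led, Nanos3-led and Jam2-led clusters of time 2 Trp53inp1 stood at 0.07, -0.01 and 0.11 and Mdm2 at -0.04, -0.07 and 0.08. Phlda3 stood at -0.07 and 0.03 in the Gm46332-led and Nanos3-led clusters and at -0.33 (counting interval -0.42 to -0.24) in the Jam2-led one, where Aen stood at -0.16. In Jam2-led cells of time 1, with 1242 high-ratio and 65 low-ratio cells, these targets were lower at high X ratio: Cdkn1a stood at -0.78 (61.0 against 105.7 CPM), Trp53inp1 at -0.48, Sesn2 at -0.42, Ccng1 at -0.33, Phlda3 at -0.30 and Mdm2 at -0.23. At time 2 Eda2r stood at 0.41, 0.22 and 0.76 in the 3 clusters, beside X gene medians of 0.41, 0.32 and 0.77.

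Phlda3 lies on chromosome 1 (chr1:135766119-135769136, plus strand), which was gained in part of the time 2 cells. A gain was called where a chromosome's share was at least 1.3 times the time 1 median. In 4013 pluripotent cells with a gain of chromosome 1 alone Phlda3 was 77.3 CPM, against 67.9 CPM in 3692 cells with no called gain (0.18). The median of 308 other chromosome 1 genes was 0.41. Genes of that chromosome set the call, while Phlda3 was left out of it. Their median can thus be raised by the choice of cells, and it is not an independent measure for Phlda3. Of the 8 other autosomal genes, 2 were above 0, against 47.1% of 4539 autosomal genes off chromosome 1; they were Cdkn1a at 0.12 (60.8 against 55.9 CPM) and Zmat3 at 0.01; Eda2r, below the minimum of 20 CPM, stood at -0.48. The 2 sets differed in X ratio, with medians of 0.96 and 1.62, so gain and X dosage cannot be told apart over the class.

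Within single clusters the X ratios lay closer and the values differed. In Gm46332-led cells, with X ratios of 0.95 and 1.03, Phlda3 was 64.1 against 56.3 CPM (0.19), Cdkn1a 53.8 against 51.0 CPM (0.08) and Eda2r 10.6 against 11.3 CPM (-0.09). In Nanos3-led cells, with X ratios of 0.99 and 1.09, Phlda3 was 112 against 87.7 CPM (0.35), Cdkn1a 80.1 against 63.1 CPM (0.34) and Eda2r 13.8 against 12.1 CPM (0.18). The count of the 8 above 0 was 2 and 3 in these clusters, against 46.9% and 35.2% of genes off the chromosome, and with a gain threshold of 1.4 it was 5 and 7, against 52.7% and 39.6%. In Id1-led cells it was 0 (39.5% of genes), and 1 at a threshold of 1.4 (42.2%). At 1.4 the sets without a called gain grew from 771 to 3381 Gm46332-led and from 732 to 2202 Nanos3-led cells. The chromosome 1 genes themselves then had medians of 0.21 and 0.31, against 0.34 and 0.38 at 1.3. The higher counts thus came with a weaker contrast of the gained chromosome itself. The count depended on the threshold and the cluster.

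Trp53 and Ccng1 lie on chromosome 11, called as gained alone in 85 pluripotent cells of time 2. There Trp53 was 447 against 351 CPM (0.35) and Ccng1 76.1 against 61.5 CPM (0.30), beside a median of 0.47 for 493 chromosome 11 genes. Genes of that chromosome set the call, without Trp53 and Ccng1, so this median is not independent of the call either. In the same cells 3 of the 7 other autosomal genes were above 0, against 44.4% of 4409 genes off that chromosome. These cells and those without a called gain had median X ratios of 0.95 and 1.62. In 101 Id1-led cells with a chromosome 11 gain, with X ratios of 0.998 and 1.04, 7 of the 7 were above 0 with a median of 0.28, against 53.7% of 4499 genes and a median of 0.02; at thresholds of 1.2 and 1.4 it was 5 of 7, against 53.8% and 49.8% of genes. Other sets did not share this. In 96 Rhox9-led cells of time 1 it was 4 of 7, with a median of 0.02, against 44.0% of genes. In the pluripotent class of time 2 it was 2 of 7 at thresholds of 1.2 and 1.4, against 45.4% and 41.4%. In 65 Gm46332-led cells at 1.4 it was 2 of 7, against 43.2%.

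None of the 10 genes lies on chromosome 8, the other chromosome often called as gained. In 667 Rhox9-led cells of time 1 with that gain alone 0 of the 9 autosomal genes were above 0, with a median of -0.20, against 43.5% of 4677 genes off the chromosome; Trp53inp1 was 40.9 against 65.3 CPM (-0.66) and Mdm2 58.9 against 75.4 CPM (-0.35). The count was 1 at a threshold of 1.2 and 0 at 1.4, against 43.5% and 40.7% of genes, and the X ratios differed, with medians of 0.96 and 1.52. In the pluripotent class of time 2 it was 4 of 9 against 46.3% of genes, and 6 of 9 against 44.6% at a threshold of 1.4. With closer X ratios it was 3 of 9 in Gm46332-led, 2 of 9 in Nanos3-led and 3 of 9 in Id1-led cells, against 38.4%, 43.9% and 38.9% of genes off the chromosome. At a threshold of 1.4 it was 4, 8 and 4 of 9, against 40.3%, 48.2% and 37.1%. The contrast of chromosome 8 itself was weaker there. Its genes had medians of 0.11, 0.19 and 0.17 in these clusters, against 0.20, 0.31 and 0.24 at 1.3. In the pluripotent class the medians were 0.24 at 1.4 and 0.39 at 1.3.

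**Figure D5:**
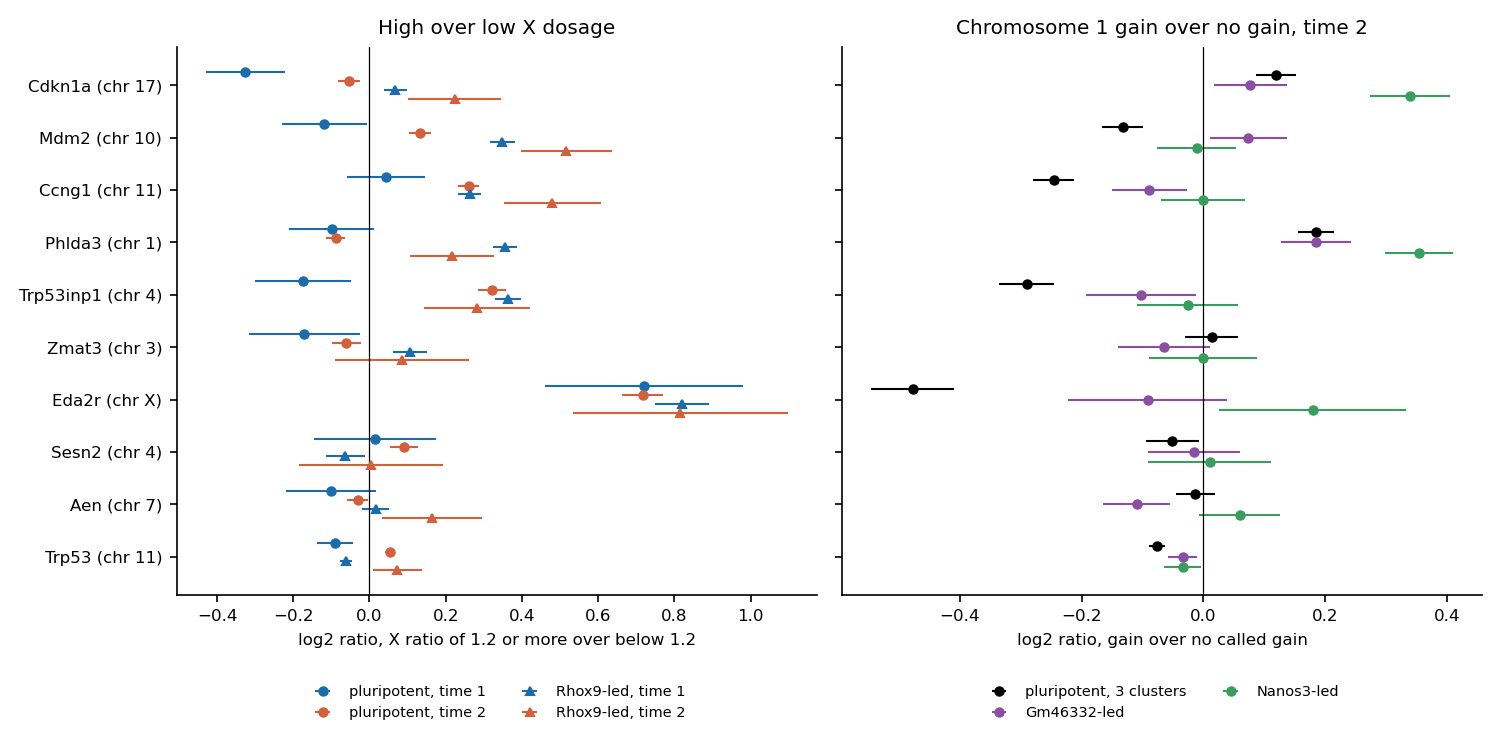
Log2 ratio of each gene's level (vertical axis, with its chromosome) in cells of high over low X ratio (left) and, at time 2, in cells with a gain of chromosome 1 over cells without a called gain (right), with bars for counting error only. Eda2r lay between 0.72 and 0.82 on the left, and Phlda3 between 0.18 and 0.35 on the right.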

How the data were processed

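The 2 droplet libraries of mixed mouse ES cell lines hold 1 sample per time point. The authors deposited unfiltered UMI count matrices; per the submitters' processing notes they used Cell Ranger 6.1.2 and bcl2fastq 2.20.0.422 with mm10/GRCm38. The matrices held 145288 and 52242 barcodes. A barcode passed from 18315 and 18645 UMIs, which is 0.1 of the 99th percentile over the top 20000 barcodes, with 1000 genes or more and no more than 10% mitochondrial UMIs. This left 25736 and 28249. The automatic thresholds of Scrublet marked 122 (0.474%) and 8 (0.0283%) barcodes, so a score of 0.2, set after the scores were seen, was used; it removed 707 and 1089 as doublets. Cells were clustered with scanpy 1.11.5 and igraph 0.11.9 (2000 variable autosomal genes, 30 components, 15 neighbours, Leiden resolution 0.5) without the members and the p53 lists. Clusters were named from fixed markers among their leading genes, and a cluster with no such marker was called pluripotent by default. The Rhox9-led and Spry2-led clusters were set to unnamed by their leading gene. UMIs were summed per class and library and given as CPM; ratios are of log2(CPM + 1), and a gene was counted if 1 of the 2 classes reached 20 CPM. Co-variation used cells thinned to 10000 UMIs. A chromosome gain is a share of autosomal UMIs at least 1.3 times the time 1 median of 9730 stem cells, with no other gain; X ratios are relative to stem cells with Y-linked UMIs of the same library. Background was read from barcodes under 2000 UMIs with at most 5% mitochondrial UMIs.

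The members and lists were chosen with earlier results of these data known. Beside the members, the text names list genes among the 3 highest and 3 lowest log2 ratios of a comparison and the 5 genes most alike to Cdkn1a, in some cases with the value of the other library beside it. With 1 library per time no test between groups was possible; intervals (95%, Poisson or exact binomial) cover counting error only. The calculations were tested on simulated data. Alternatives covered the pseudocount, TMM scaling (edgeR 4.0.16, R 4.3.3), background subtraction, thinning, filters, doublets, class definitions and the gain threshold. Python 3.11.15, numpy 2.4.6, scipy 1.17.1, pandas 2.3.3 and matplotlib 3.10.9 were used.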

Additional observations from a re-analysis of the deposited data

Results flagged for a closer look

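In 9 cases a class's ratio to pluripotent cells had opposite signs in the 2 libraries with both counting intervals clear of 0; opposite signs with an interval that reached 0 are not listed. In mesendoderm-like cells Cdkn1a had a log2 ratio of -0.61 in the early and 0.56 in the later library, and Ccng1 one of -0.58 and 0.29. In primitive or parietal endoderm-like cells Trp53inp1 stood at 0.71 and -0.23, in trophoblast-like cells Sesn2 at -0.34 and 0.16, and in two-cell-like cells Zmat3 at 0.31 and -0.42. In primed epiblast-like cells Mdm2 stood at -0.09 and 0.33 and Sesn2 at -0.15 and 0.34. In Rhox9-led cells Eda2r stood at -0.13 and 0.68, and in Id1-led cells Sesn2 at -0.26 and 0.0904. The pluripotent reference of all 9 cases was mostly Jam2-led at time 1 and mainly Gm46332-led and Nanos3-led at time 2. Rhox9-led Eda2r itself was 16.9 and 20.1 CPM. Each time has 1 library, and none of the 9 differences was tested.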

How the results depend on the processing

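Alternatives with the Rhox9-led, Spry2-led, Jam2-led, Gm46332-led or Nanos3-led clusters, without cells holding stem cell RNA, for differentiated cells thinned means, no minimum and marker classes, and over time marker classes, were chosen after seeing the data. The count of genes 2-fold higher in fibroblast-like cells (4) ranged from 3 to 5, that of co-varying genes (7) from 5 to 8 and that of genes higher with a chromosome 1 gain in pluripotent cells (2) from 2 to 3, except with a gain threshold of 1.4 within the Gm46332-led (5) and Nanos3-led (7) clusters. The count in differentiated cells (1) was 0 with TMM scaling, thinned means, marker classes, Rhox9-led cells as reference and Rhox9-led and Spry2-led cells added to it. The count lower at time 2 (1) was 0 with TMM scaling, in cells without a called gain, in Jam2-led and in Rhox9-led cells, 2 with thinned means and 3 with primed epiblast-like cells added. Of 672 log2 ratios of single genes under alternatives, 69 with a reported value under 25% in size had the other sign, most often over time (23) and with a chromosome 1 gain (20). Of larger reported values 15 turned: against Rhox9-led cells, fibroblast-like Trp53inp1 (-0.25) and Eda2r (-0.29) and differentiated Mdm2 (-0.0855) at time 2; with marker classes at time 1, differentiated Cdkn1a (-0.14), Ccng1 (-0.0388) and Eda2r (0.27); over time, Eda2r with primed epiblast-like cells (0.0924), in Jam2-led (0.0018) and Rhox9-led cells (0.24), and Ccng1 (0.0371) and Trp53inp1 (0.061) in Rhox9-led cells; and Eda2r with a chromosome 1 gain in Nanos3-led cells (0.18, and 0.0723 and 0.27 at thresholds of 1.2 and 1.4) and in Gm46332-led cells at 1.4 (0.11). The cause was not tested. No paired analysis was possible because each time point has 1 library. Counting error is small at these depths, but culture-to-culture spread is unknown; genes near 20 CPM, such as Eda2r, are the least precise.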

Other observations

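Barcodes with over 10% mitochondrial UMIs and at least 5000 UMIs, left out above, numbered 6127 at time 1 and 1405 at time 2. They were set against the 39632 and 30490 barcodes below 10%, as CPM of non-mitochondrial UMIs. Most genes were higher in them: the median log2 ratio over 6616 and 6571 genes was 0.42 and 0.43, and 42.8% and 44.7% of the genes were at least 1.5-fold higher. Eda2r stood at 47.1 and 61.7 against 14.2 and 12.7 CPM (rank 186 and 128). Trp53inp1 stood at 119 and 124 against 58.1 and 33.0 CPM (log2 ratios 1.02 and 1.88, rank 1554 and 365) and Sesn2 at 73.7 and 74.6 against 28.6 and 33.3 CPM (1.34 and 1.14, rank 675 and 1683). Zmat3 (0.95 and 1.53), Mdm2 (0.79 and 1.29) and Ccng1 (0.45 and 0.94) were also above the median, Aen (0.34 and 0.71) lay below it at time 1, and Cdkn1a (-0.16 and 0.19), Phlda3 (-0.37 and -0.19) and Trp53 (-0.05 and -0.38) lay below it in both libraries.

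Macrophage-like cells, 56 at time 1, held Cdkn1a at 389 CPM and Mdm2 at 131 CPM, 6.03-fold and 2.09-fold above pluripotent cells, with Ccng1 at 90.2 CPM and a log2 ratio of 0.17. In 7 of them without stem cell RNA Cdkn1a stood at 362 CPM.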
